A study of Danio rerio with 24 samples.

Results

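Cells of the zebrafish tail that carried neither of 2 fluorescent reporters were compared between 52 hours post-fertilization (hpf) and 3 days post-fertilization (dpf), with 2 libraries at each stage. These 4 libraries are all the double-negative libraries of those stages, chosen by their labels, out of 24 in the study. The embryos carried Tg(kdrl:mCherry/CD41:GFP). In that line the kdrl promoter drives mCherry in endothelial cells (EC), and the CD41 (itga2b) promoter drives GFP in haematopoietic stem and progenitor cells (HSPC) and thrombocytes. Cells positive for neither reporter were sorted from embryonic tails as the double-negative population, and the labels of both stages also name the caudal haematopoietic tissue (CHT). No other allele, treatment or agent is given for any of the 4 libraries. The labels do not say how many embryos were pooled, nor whether the 2 libraries of a stage came from separate clutches or sorts, and the p-values then describe no more than how these libraries vary. Double-negative libraries of 36 hpf and 4 dpf, 2 each, entered the estimate of spread and are given for context.

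The CHT is a vascular plexus in the ventral tail where blood stem cells settle and expand in the zebrafish larva. Endothelium and CD41-positive cells are sorted away from a double-negative gate, so it collects what else the tail holds: spinal cord, skin, muscle, notochord, fin fold, connective tissue, and blood cells such as erythrocytes and neutrophils that carry neither reporter. Between these stages spinal neurons are known to mature, myelination starts, and erythrocytes circulate through the tail. A bulk measurement of such a mixture gives each gene's share of the RNA of all its cells, so fewer cells of a type and less RNA per cell cannot be told apart.

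The reporter genes themselves were close to 0 in all 4 libraries. kdrl was at 0.584 and 0.509 FPKM (fragments mapped to a gene, scaled to its length and to the library's total) at 52 hpf and at 0.257 and 0.387 FPKM at 3 dpf. itga2b was at most 0.0708 FPKM. A check of the tissue used 21 forebrain and eye transcription factor genes picked after values had been seen. Of these, 3 and 4 reached 1 FPKM in the 52 hpf libraries, and 3 and 1 did in the 3 dpf libraries. In the 36 hpf libraries, whose titles do not name the CHT, 18 and 20 of the 21 did, with otx2 at 12.3 and 17.5 FPKM, which goes against their tail label.

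Recovered read numbers, in units of 1e6 reads, were 15.7 and 17.1 at 52 hpf and 11.3 and 10.5 at 3 dpf, and 19317 to 21562 genes were above 0 in a library. The 52 hpf libraries stood apart in composition. A single globin gene, hbae3, held 13.2% and 12.5% of their summed FPKM, and 31 erythroid genes together held 20% and 18.2%, against 1.14% and 2.33% at 3 dpf. Over the genes tested, the 2 libraries of a stage had a Spearman correlation of 0.966 at 52 hpf and 0.932 at 3 dpf. Between the stages it was 0.672 to 0.698, the lowest range among the pairs of tail double-negative stages. Mitochondrially encoded genes held 4.55% and 4.71% of FPKM at 52 hpf and 9.46% and 5.69% at 3 dpf.

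Of 17372 genes tested, 4538 (26.1%) were called higher at 3 dpf and 2726 (15.7%) lower, so 41.8% were called in either direction. A call needed a Benjamini-Hochberg adjusted p under 0.05 in limma over all genes tested and a change of at least 1 on the log2(FPKM + 1) scale, the scale of every fold change below, with its standard error (SE) after ±. The libraries of the 2 stages did not overlap for any called gene. With 2 libraries a stage an exact permutation test of 1 gene cannot go below p = 0.333, so the calls rest on the spread pooled over genes and over the 8 double-negative libraries of 36 hpf to 4 dpf. Of the genes tested, 152 passed the filter on low values only through the 52 hpf libraries, 89 of them called lower, and 47 only through the 3 dpf libraries, 27 of them called higher, so those calls partly follow from the filter. The median gene was 0.32 higher at 3 dpf, and every list below should be read against that shift. Scaling by the median of ratios moved the median to -0.07 and the higher share of the calls from 62.5% to 43.4%, while scaling to a common FPKM sum moved them to 0.61 and 75.3%. These scalings called 17.6% higher and 23% lower (40.6% in all) and 34.9% and 11.5% (46.4% in all). A fit over all 24 libraries called 2025 of 21024 genes higher (9.63%) and 823 lower (3.91%), 13.5% in all. Without replicate 2 of EC and of HSPC at 4 dpf, the same fit called 3773 of 20970 higher (18%) and 2244 lower (10.7%), 28.7% in all, and these fits are called below those of 24 and of 22 libraries. A fit of only the 4 libraries compared called 4577 higher and 2737 lower. No gene was called in the opposite direction under any setting tried.

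**Figure D1:**
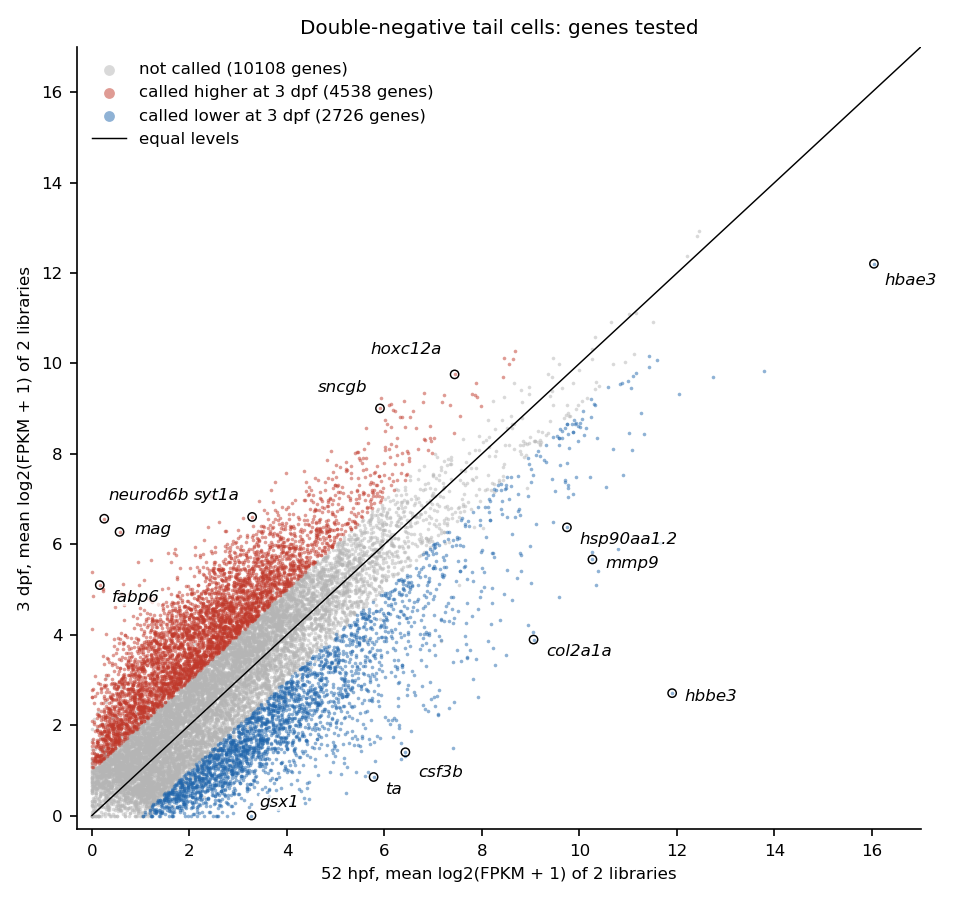
Each point is 1 of the 17372 genes tested, placed by its mean log2(FPKM + 1) in the 2 libraries of 52 hpf (x axis) and of 3 dpf (y axis). Red points are the 4538 genes called higher at 3 dpf, blue points the 2726 called lower, grey points the rest. The globin gene hbae3 is the highest gene at 52 hpf and lies far below the line of equal levels, and neurod6b and mag lie near 0 at 52 hpf and above 6 at 3 dpf.

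Among the 15 largest rises were genes of neurons, of myelinating glia and of the intestine. neurod6b, a basic helix-loop-helix transcription factor of differentiated neurons, was at 0.238 and 0.147 FPKM at 52 hpf and at 89.96 and 97.59 FPKM at 3 dpf. Its log2 fold change of 6.31 ± 0.25 (adjusted p = 3.14e-06) was the largest of the 167 rises above 3. The EC sort of 3 dpf held it at 1.53 and 3.99 FPKM, and both HSPC libraries of that stage list it at 0. Other genes among the 15 largest rises encode a transmitter receptor subunit, signalling peptides and proteins of other kinds. grin1b, an NMDA receptor subunit, rose from 2.44 and 2.11 to 58.9 and 57.3 FPKM (4.18 ± 0.22, adjusted p = 8.55e-06). pnocb, a prepronociceptin gene, rose by 4.25 ± 0.35, cadm2b, a cell adhesion molecule gene, by 4.33 ± 0.29, and uts2b, a urotensin 2 gene, by 4.67 ± 0.35. The calcium buffer gene pvalb6 rose by 4.25 ± 0.22, ANO2, a calcium-activated chloride channel gene, by 4.15 ± 0.29, and nr4a2a, an orphan nuclear receptor gene, by 4.13 ± 0.31. vipb, which encodes vasoactive intestinal peptide, was listed at 0 in both 52 hpf libraries and at 16.2 and 16.9 FPKM at 3 dpf. At 4 dpf vipb was at 132 and 94.9 FPKM. The 15 largest rises also held fabp6, described with the gut genes below, crp1 (4.79) and lgals2b (4.61). The most abundant genes that rose were the linker histone gene h1f0 (330 and 506 FPKM, then 1280 and 1184 FPKM) and the glycolytic gene gapdhs (294 and 412 FPKM, then 984 and 1258 FPKM).

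Genes of general neuronal function were higher almost throughout. Of 54 neuronal genes tested, 52 rose, and the median of the list was 2.18. The vesicle calcium sensor gene syt1a was at 8.62 and 8.89 FPKM at 52 hpf and at 104 and 89.4 FPKM at 3 dpf (3.32 ± 0.19, adjusted p = 9e-06). The synuclein gene sncgb, among the most abundant of the list, was at 59.5 and 58.7 FPKM and then at 508 and 519 FPKM (3.10 ± 0.15). In both genes the replicates of each stage were close together. stmn4, which encodes a microtubule regulator, rose by 3.01 ± 0.25, and nrxn2a, a presynaptic adhesion gene, by 2.98 ± 0.19. Further members that rose were the synaptic fusion genes snap25b (2.94) and snap25a (2.72), the RNA-binding protein genes rbfox3a and elavl4 (2.74 each), the sodium pump gene atp1a3a (2.58) and the axonal microtubule protein genes mapta (2.26) and maptb (2.24), all named here after their values were seen. The exceptions were sncga, another synuclein gene, which fell by 1.28, and tuba1a, a tubulin gene, which was at 0.77 and was not called. The call of sncga was lost under several settings, among them a common FPKM sum and the fits of 24 and of 22 libraries. Of the 5 most abundant genes that rose, tubb2b (1.43 ± 0.24), a neuronal tubulin gene, and marcksl1b (1.46 ± 0.19), a cytoskeletal regulator gene, were not called under median-of-ratios scaling or on recovered reads. The list's mean level was 4.88 and 4.89 on the log2(FPKM + 1) scale at 52 hpf, and 6.95 and 7.02 at 3 dpf. It was 6.23 and 6.12 at 36 hpf and 6.49 and 6.36 at 4 dpf, so among the 4 stages 52 hpf was the lowest. The 36 hpf libraries held forebrain and eye genes, and the part of that tissue in their neuronal level was not tested. The fit of 24 libraries called 28 of the 54 higher and that of 22 libraries 47.

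Transmitter and identity genes of spinal neurons were mostly higher. Of 45 tested, 26 rose and 3 fell, with a median of 1.45. The largest rise of the list was in slc6a5, the neuronal glycine transporter gene, which went from 24.8 and 29.6 to 217 and 251 FPKM (3.06 ± 0.28, adjusted p = 3.54e-05). slc32a1, the vesicular transporter of GABA and glycine, went from 32.2 and 30.4 to 221 and 209 FPKM (2.74 ± 0.15). The transcription factor genes pax2a (2.80 ± 0.19) and otpa (2.75 ± 0.17) rose with them. Genes chosen after their values were seen show the other classes. The vesicular glutamate transporter genes slc17a6a and slc17a6b rose by 2.50 and 2.49, the GABA synthesis genes gad1b and gad2 by 2.31 and 2.26, and chata, for acetylcholine synthesis, by 1.998. The motor neuron transcription factor genes mnx1 (0.46), mnx2a (0.05) and mnx2b (0.56) were not called. Both urotensin-related peptide genes of cerebrospinal fluid-contacting neurons were lower at 3 dpf. urp1 went from 26.2 and 13.8 to 4.85 and 3.26 FPKM (adjusted p = 0.00636) and urp2 from 7.26 and 10.7 to 0.502 and 0.984 FPKM. pkd2l1, the channel gene of the same cells, was at -0.81 and was not called. The other gene that fell was vsx1 (-2.16), a transcription factor gene of V2 precursors. Fitting 24 libraries left 15 of the 45 called higher, and 22 libraries 25.

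**Figure D2:**
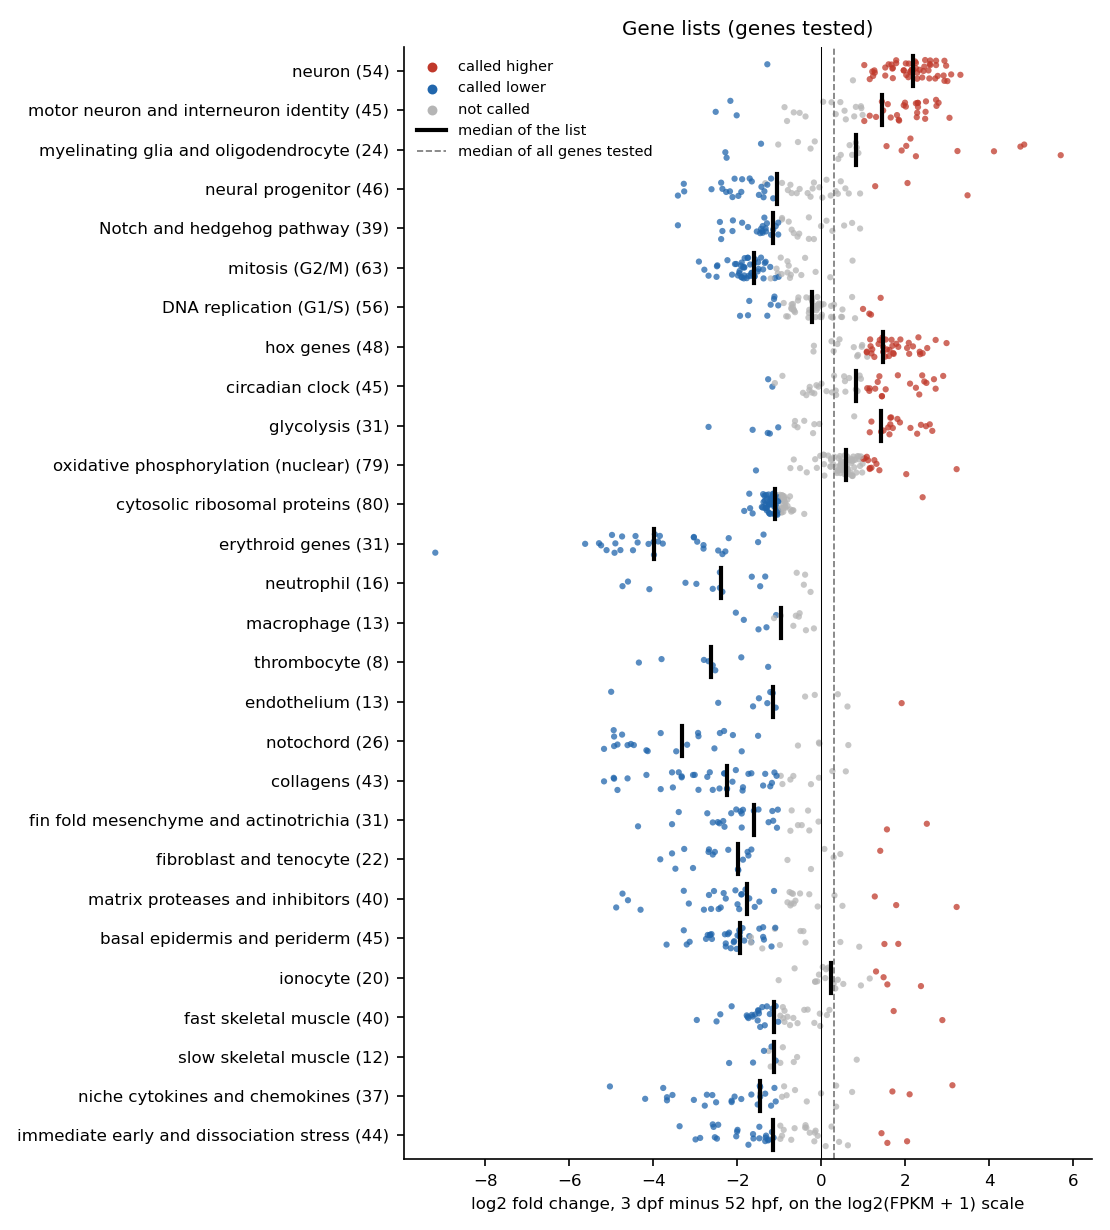
Each point is 1 gene tested, placed by its log2 fold change of 3 dpf against 52 hpf on the log2(FPKM + 1) scale, within 28 gene lists whose numbers of tested genes stand in brackets. Red points were called higher, blue points lower, grey points neither, the black bar is the list's median and the dashed line is the median of all genes tested, 0.32. In the neuron list 52 of the 54 points are red, and the erythroid list lies wholly to the left.

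A few myelin genes were near 0 at 52 hpf and present at 3 dpf. mag, the myelin-associated glycoprotein of the membrane next to the axon, was at 0.382 and 0.587 FPKM at 52 hpf and at 75.9 and 76.9 FPKM at 3 dpf (5.71 ± 0.22, adjusted p = 3.14e-06). It was at 199 and 203 FPKM at 4 dpf. mbpa, myelin basic protein, had 0 and 0.0219 FPKM at 52 hpf and 29.4 and 26.4 FPKM at 3 dpf (4.84 ± 0.25). plp1b, the proteolipid protein gene, rose by 4.75 ± 0.28, and cd59, expressed in zebrafish myelinating glia, by 4.12 ± 0.28. All 4 were higher again at 4 dpf, where mbpa was at 149 and 123 FPKM. Of the 24 glial genes tested, 10 rose and 3 fell, with a median of 0.84. The rises were in the myelin proteins and in myrf, the activator of myelin genes (2.03), whereas the lineage regulators olig2 (-0.25), sox10 (0.83) and nkx2.2a (0.47) were not called. The 3 that fell were pmp22a, pmp22b and erbb2, which other tissues also express. These genes were named after their values were seen.

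Progenitor genes of the nervous system went the other way. Of 46 tested, 22 fell and 3 rose, with a median of -1.04. notch3, a Notch receptor gene of radial glia and mural cells, was at 22.2 and 41.5 FPKM at 52 hpf and at 2.08 and 1.82 FPKM at 3 dpf (-3.41 ± 0.39, adjusted p = 1.04e-04). gfap, the intermediate filament of radial glia, went from 204 and 97.4 to 12.3 and 15.6 FPKM (-3.26 ± 0.31). gsx1, a dorsal spinal progenitor homeobox gene, had 9.02 and 8.32 FPKM at 52 hpf and is listed at 0 in both 3 dpf and both 4 dpf libraries. Its level was 55.0 and 64.7 FPKM in the 36 hpf libraries, which held forebrain and eye genes. The 3 that rose were neurod1 (3.49 ± 0.20), a factor of differentiating neurons, and, named after their values were seen, pax6a (2.06) and slc1a2b (1.29), a glutamate transporter gene. In the fit of 24 libraries 14 of the 46 were called lower, and in that of 22 libraries 20. Leaving out 3 dpf replicate 2 raised the number called higher from 3 to 5.

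Notch ligands fell with the receptors. In the list of 39 tested genes of the Notch and hedgehog pathways, 23 fell and none was called higher, with a median of -1.14. The ligand genes dld and dlb fell by 2.38 ± 0.29 and by 2.35 ± 0.43. shha, the hedgehog ligand of the notochord and floor plate, went from 6.68 and 17.3 to 2.203 and 0.563 FPKM (-2.41 ± 0.47, adjusted p = 0.00228). Named after their values were seen, the receptor genes notch1a (-1.35), notch1b (-1.88) and notch2 (-1.53) and the hedgehog target gli1 (-1.40) were also among the 23, and ptch1 (-0.29) was not. notch3, dld, dlb, notch1a and notch1b also stand in the neural progenitor list, so the 2 lists are not separate results. The fit of 24 libraries called 8 of the 39 lower and that of 22 libraries 18.

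Mitosis genes fell broadly, while replication genes were called lower at a share near that of all genes. Of 63 genes of G2 and M phase tested, 47 fell and none was called higher, with a median of -1.60. nuf2, a kinetochore component gene, was at 16.6 and 17.2 FPKM at 52 hpf and at 1.44 and 1.77 FPKM at 3 dpf (-2.78 ± 0.22, adjusted p = 1.78e-05). cdk1, the kinase that starts mitosis, went from 26.8 and 20.6 to 5.26 and 0.694 FPKM (-2.91 ± 0.49), with the 3 dpf replicates far apart. birc5a, which encodes survivin, and tacc3, a spindle protein gene, fell by 2.68 ± 0.32 and by 2.49 ± 0.23. Of 56 genes of G1 and S phase, 8 fell and 4 rose, with a median of -0.21. The shares of 14.3% lower and 7.14% higher stand beside 15.7% and 26.1% of all genes, whose median was 0.32. rrm1, a ribonucleotide reductase gene, fell by 1.93 ± 0.24 and chaf1a, a histone chaperone gene, by 1.74 ± 0.26. mcm7, a helicase subunit gene, rose by 1.42 ± 0.17, a call that was lost under median-of-ratios scaling and on recovered reads. The other 3 that rose were pold3 (1.19), dnmt1 (1.15) and rfc1 (1.004). Under median-of-ratios scaling no replication gene was called higher and 15 were called lower. Without 52 hpf replicate 1, 5 replication genes were called higher and 3 lower, with a median of 0.08. Without 52 hpf replicate 2, 1 was higher and 8 were lower, with a median of -0.41. Of the mitosis genes, 5 were called lower in the fit of 24 libraries and 41 in that of 22.

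**Figure D3:**
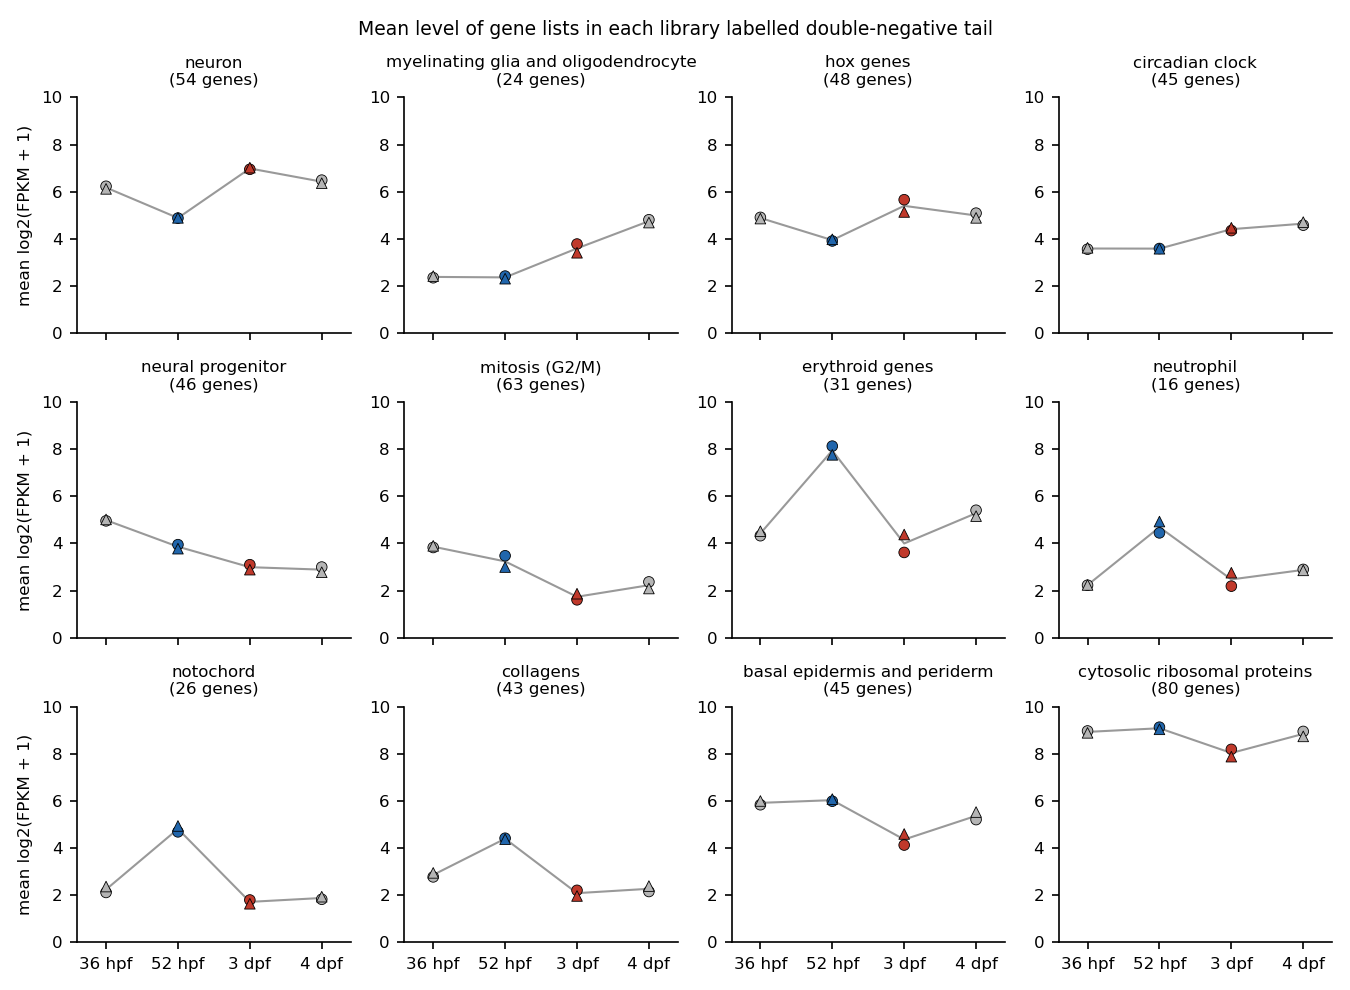
Each panel gives the mean log2(FPKM + 1) of the tested members of 1 gene list in each of the 8 libraries labelled double-negative tail, with circles for replicate 1 and triangles for replicate 2, blue for 52 hpf, red for 3 dpf and grey for 36 hpf and 4 dpf. Lines join the stage means. The erythroid, neutrophil, notochord and collagen lists are highest at 52 hpf, the neuron and hox lists are lowest there, and the neural progenitor list is lower at each later stage. The 36 hpf libraries also held forebrain and eye genes.

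hox genes, which mark position along the body axis and are expressed in the spinal cord and other tissues of the tail, were higher at 3 dpf as a list. Of 48 tested, 36 rose and none was called lower, with a median of 1.48. hoxc12a, the most abundant of them, was at 164 and 181 FPKM at 52 hpf and at 862 and 867 FPKM at 3 dpf (2.32 ± 0.16, adjusted p = 1.21e-05). It was at 490 and 498 FPKM at 4 dpf. hoxc12b went from 17.7 and 22.7 to 180 and 154 FPKM (2.99 ± 0.20), hoxd11a from 36.9 and 36.4 to 272 and 148 FPKM (2.42 ± 0.28) and hoxd3a from 43.3 and 50.9 to 348 and 217 FPKM (2.53 ± 0.23). hoxb1a, the most anterior of the 4 hox genes with the largest rises, went from 1.01 and 0.934 to 16.7 and 8.75 FPKM (2.73 ± 0.34). For each of these genes both 3 dpf libraries lay above both 52 hpf libraries, as they did for every gene called higher.

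The rise was spread over paralog groups, which run from anterior (low numbers) to posterior (high numbers). Of the genes of groups 1 to 4, 10 of 13 rose with a median of 1.48. In groups 5 to 8, 9 of 12 rose with a median of 1.36, in groups 9 and 10, 7 of 9 with a median of 1.40, and in groups 11 to 13, 10 of 14 with a median of 1.78. The level differed more than the change. Groups 11 to 13 summed to 440 and 476 FPKM at 52 hpf and to 2239 and 1918 FPKM at 3 dpf, of which hoxc12a held 862 and 867 FPKM. Groups 9 and 10 summed to 436 and 438 FPKM and to 1288 and 1020 FPKM, and groups 5 to 8 to 119 and 140 FPKM and to 449 and 335 FPKM. The mean log2(FPKM + 1) per gene was highest in groups 9 and 10 at both stages, at 5.51 and 5.47 and then 6.96 and 6.61. In the 36 hpf libraries groups 5 to 8 summed to 899 and 885 FPKM and groups 11 to 13 to 246 and 215 FPKM. Those libraries held forebrain and eye genes, so stage and the part of the body sampled cannot be told apart there. The mean level of the hox list was 3.91 and 3.98 at 52 hpf and 5.66 and 5.14 at 3 dpf on the log2(FPKM + 1) scale. That of the neuron list, given above, moved in the same direction, and its part in the hox result was not tested. Under median-of-ratios scaling 24 of the 48 were called higher, and 14 were in the fit of 24 libraries and 33 in that of 22.

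**Figure D4:**
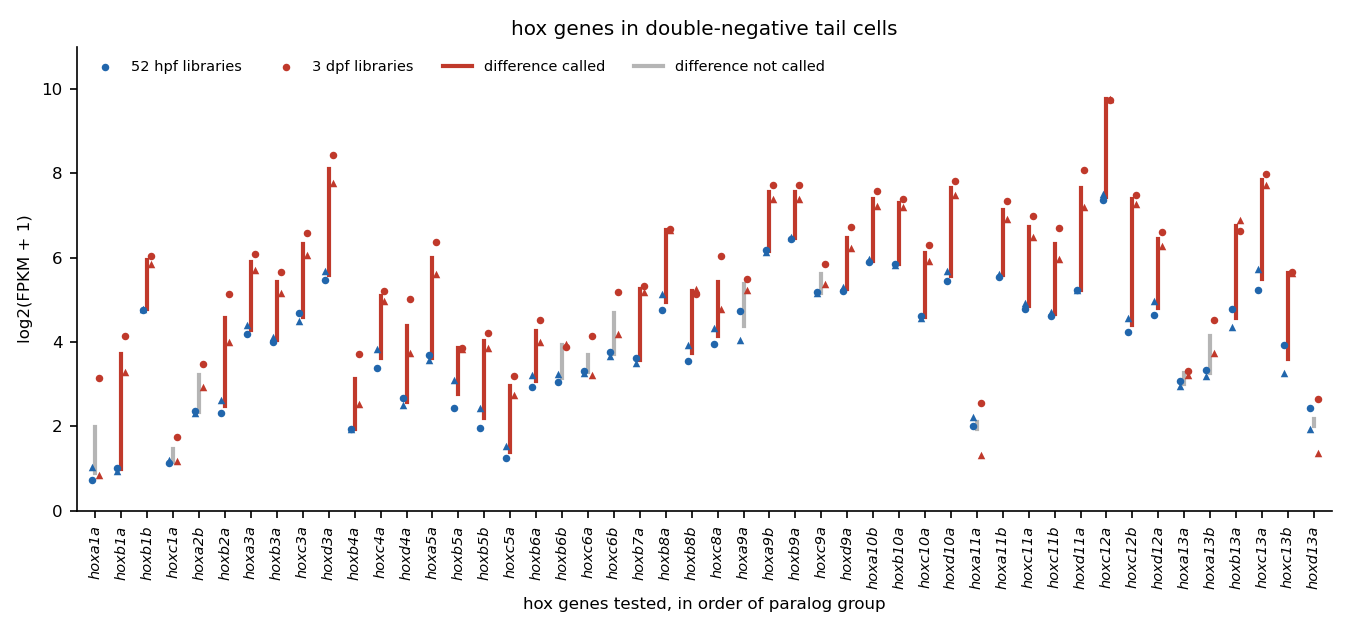
Each hox gene tested is shown in order of paralog group, with its log2(FPKM + 1) in the 52 hpf libraries (blue) and the 3 dpf libraries (red), circles for replicate 1 and triangles for replicate 2. A bar joins the stage means and is red where the difference was called. The 36 red bars are spread from hoxb1a to hoxc13b, and hoxc12a is the highest gene at both stages.

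Blood genes were far lower at 3 dpf, red cell genes most of all. All 31 erythroid genes tested fell, with a median of -3.98. hbae3, an embryonic alpha globin gene, was at 69335 and 65461 FPKM at 52 hpf and at 3297 and 6754 FPKM at 3 dpf (-3.84 ± 0.32, adjusted p = 2.45e-05). The 36 hpf libraries had 3209 and 3355 FPKM of it, those of 4 dpf 8550 and 7572 FPKM. Its levels at the other stages were far below those of 52 hpf. hbbe3, an embryonic beta globin gene, went from 5216 and 2801 to 7.27 and 4.16 FPKM (-9.19 ± 0.55), the largest fall of all genes, with 2.94 FPKM and a listed 0 at 4 dpf. Globin genes are near-identical copies, so the split of reads among them is uncertain. The fall was not limited to globins. slc4a1a, the band 3 anion exchanger of the red cell membrane, went from 1573 and 1063 to 21.6 and 51.1 FPKM (-5.24 ± 0.34), and the haem synthesis genes urod, hmbsb and ppox fell by 5.29 ± 0.21, by 5.11 ± 0.46 and by 5.10 ± 0.31. gata1a, the erythroid master regulator, fell by 2.45, and alas2, the enzyme that starts haem synthesis in red cells, by 4.90, both named after their values were seen. The water channel gene aqp1a.1, placed here in the endothelium list and also expressed in red cells, fell by 4.998 ± 0.31. For the 31 erythroid genes the fit of 24 libraries called 17 lower and that of 22 libraries all 31.

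Granulocyte and thrombocyte genes fell too. Of 16 neutrophil genes tested, 12 fell and none was called higher, with a median of -2.38. The metalloproteinase gene mmp9 was at 915 and 1654 FPKM at 52 hpf and at 25.97 and 94.4 FPKM at 3 dpf (-4.60 ± 0.50, adjusted p = 8.15e-05), and il1b, the interleukin 1 beta gene, at 192 and 243 FPKM and then at 6.54 and 20.6 FPKM (-4.09 ± 0.40). Both are known to be expressed outside neutrophils as well. In the EC libraries of 3 dpf mmp9 was at 964 and 632 FPKM. Those libraries also held npsn, a member of the neutrophil list, at 531 and 773 FPKM, and the source of mmp9 there was not tested. The granule genes lyz (-2.97) and mpx (-2.41), named after their values were seen, fell by less. Of 12 thrombocyte genes listed, 8 were tested, 1 of which passed the filter only through the 52 hpf libraries, and the other 7 fell, with a median of -2.68, among them tubb1, a platelet tubulin gene, from 182 and 104 to 3.37 and 9.66 FPKM (-4.34 ± 0.40) and f13a1b, a coagulation factor gene, from 22.7 and 17.9 to 1.01 and 0.150 FPKM (-3.80 ± 0.35). itga2b, the gene of the sorted marker, was near 0 at both stages. The fit of 24 libraries called 5 neutrophil and 5 thrombocyte genes lower and that of 22 libraries 10 and 7.

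Macrophage genes were low in level at both stages. Of 13 that passed the filter on low values, 4 passed only through the 52 hpf libraries, among them csf1ra, marco and mpeg1.1, so no count is given for the list. lcp1, an actin-bundling protein gene of leukocytes, went from 9.13 and 10.5 to 1.39 and 1.91 FPKM (-2.03 ± 0.29, adjusted p = 3.74e-04). csf1ra, the macrophage growth factor receptor gene, was at 2.07 and 3.56 FPKM at 52 hpf and at 0.528 and 0.161 FPKM at 3 dpf. Among 16 regulators of blood progenitors, 7 fell, led by gfi1b, a repressor of erythroid and megakaryocyte cells, from 39.1 and 30.9 to 0.407 and 2.61 FPKM (-3.99 ± 0.43). The 3 that rose were gata2a (2.02), meis1b (1.65) and tal1 (1.16), of which gata2a and tal1 are also spinal interneuron genes and stand in that list. runx1 fell by 1.76 and myb was at -0.02. The shares of this list were 43.8% lower and 18.8% higher, beside 15.7% and 26.1% of all genes. Its median of -0.69 became -1.24 without 52 hpf replicate 1 and -0.21 without 52 hpf replicate 2. The fit of 24 libraries called 1 of the 16 lower and none higher, and that of 22 libraries 7 lower and 3 higher. Of 13 endothelial genes tested, 8 fell and flt1, a VEGF receptor gene, rose from 0.682 and 0.320 to 4.45 and 4.81 FPKM (1.92 ± 0.35). Only 3 endothelial genes were called lower without 3 dpf replicate 2, without 52 hpf replicate 1 or without 52 hpf replicate 2, and 3 in the fit of 24 libraries. kdrl did not pass the filter on low values, and the 24 endothelial genes in the table included 6 listed at 0 in each 3 dpf library.

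**Figure D5:**
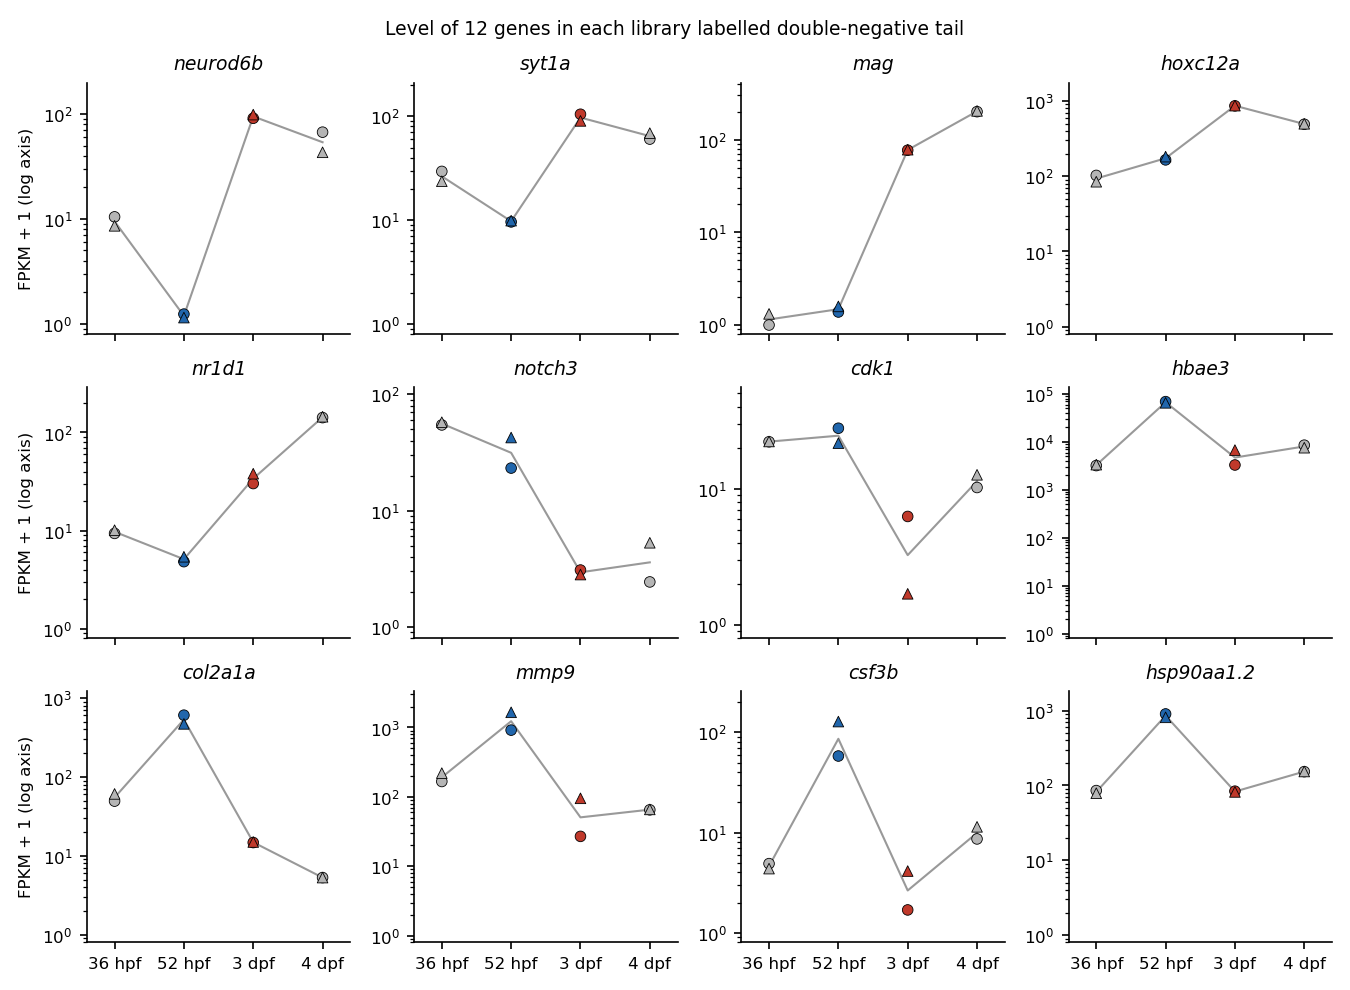
Each panel gives FPKM + 1, on a log axis, of 1 gene in the 8 libraries labelled double-negative tail, with circles for replicate 1 and triangles for replicate 2, blue for 52 hpf, red for 3 dpf and grey for 36 hpf and 4 dpf, and lines through the stage means. neurod6b, syt1a, mag, hoxc12a and nr1d1 are higher at 3 dpf than at 52 hpf in every library, and the other 7 genes are lower.

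Notochord genes made the other deep fall. The notochord is the rod of vacuolated and sheath cells that stiffens the embryo and secretes signals to its neighbours. Of 26 genes tested, 22 fell and none was called higher, with a median of -3.32. Of the 22, 1 passed the filter only through the 52 hpf libraries. col2a1a, the fibrillar collagen of the sheath and of cartilage, was at 604 and 469 FPKM at 52 hpf and at 13.73 and 13.97 FPKM at 3 dpf (-5.17 ± 0.19, adjusted p = 3.14e-06). ta, the Brachyury transcription factor gene, was at 33.0 and 87.5 FPKM and then at 0.641 and 0.985 FPKM (-4.93 ± 0.47). In the 36 hpf double-negative libraries, which held forebrain and eye genes, col2a1a was at 48.3 and 59.9 FPKM and ta at 2.395 and 0.979 FPKM. Other sorts of 36 hpf held more: col2a1a was at 416 and 925 FPKM in EC and at 350 and 385 FPKM in HSPC. ta was at 30.4 and 71.2 FPKM in EC and at 14.2 and 14.1 FPKM in HSPC. The cartilage-type collagen genes col9a1b (-4.93 ± 0.23), col9a2 (-4.85 ± 0.31) and col9a3 (-4.94 ± 0.23) fell with them. Of 14 cartilage and bone genes tested, 6 fell and 1 rose, with a median of -0.77. The falls included lect1, a chondromodulin gene, from 70.9 and 91.0 to 2.44 and 1.70 FPKM (-4.74 ± 0.29), and sox9a, an activator of cartilage collagens (-2.77 ± 0.24), while alpl, an alkaline phosphatase gene, rose by 1.58. Of the 6 cartilage and bone genes that fell, 2 passed the filter only through the 52 hpf libraries, and 3 were called lower when either 52 hpf library was left out. In the EC libraries of 3 dpf col2a1a was at 165 and 164 FPKM. The fit of all 24 libraries also called 22 lower.

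Extracellular matrix genes fell over the connective tissues as well. Of 43 collagen genes tested, 35 fell and none was called higher, with a median of -2.24. Of the 35, 1 passed the filter only through the 52 hpf libraries. The collagen and notochord lists share members, among them col2a1a, col9a1b and col9a3, so these falls are counted in both. col1a2, a chain of type I collagen, went from 355 and 344 to 37.6 and 22.3 FPKM (-3.55 ± 0.23, adjusted p = 1e-05). sparc, a collagen-binding matrix protein gene, went from 392.2 and 449.7 to 44.1 and 31 FPKM (-3.47 ± 0.19). Fibroblast and tendon genes fell in 16 of 22 tested, with a median of -1.97, led by postnb, a periostin gene (-3.83 ± 0.27), with lum, the proteoglycan lumican, at -3.26 ± 0.28. The member of that list that rose was the tendon factor gene scxa (1.41). Genes of the fin fold fell in 22 of 31, with a median of -1.60. The fin fold and fibroblast lists share members, among them col1a2. and1, an actinodin of the fin fold's fibres, went from 1017 and 740 to 157 and 111 FPKM (-2.71 ± 0.23), and fn1b, a fibronectin gene, from 77.1 and 79.0 to 1.37 and 5.27 FPKM (-4.36 ± 0.40). msx1a (2.52) and tph1b (1.57) rose in this list. Of the fin fold genes, 10 were called lower in the fit of 24 libraries and 18 in that of 22.

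Proteases that remodel the matrix and their inhibitors were mostly lower as well. Of 40 tested, 24 fell and 3 rose, with a median of -1.76. Of the 24, 1 passed the filter only through the 52 hpf libraries. mmp13a and mmp9 also stand in the neutrophil list, so their falls are counted in both lists. mmp13a, a collagenase gene, was at 345 and 710 FPKM at 52 hpf and at 7.75 and 38.8 FPKM at 3 dpf (-4.73 ± 0.59, adjusted p = 1.75e-04). timp2b, a metalloproteinase inhibitor gene, was at 73.5 and 82.3 FPKM and then at 1.21 and 6.26 FPKM (-4.298 ± 0.46). For both genes the 3 dpf replicates were far apart. The 3 that rose were mmp24 (3.23), mmp17b (1.79) and mmp17a (1.28), which encode membrane-type metalloproteinases.

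Skin and muscle genes were lower too, with smaller changes in the muscle genes. Of 45 genes of the epidermis and its outer periderm tested, 33 fell and 2 rose, with a median of -1.93. krt4, a keratin gene among the most abundant genes that fell, was at 6336 and 2783 FPKM at 52 hpf and at 520 and 800 FPKM at 3 dpf (-2.70 ± 0.36, adjusted p = 2.44e-04). The annexin gene anxa2a fell by 3.68 ± 0.48 and the claudin gene cldni by 3.27 ± 0.34. The 2 that rose were krt92 (1.84) and cldna (1.51). Fast muscle genes fell in 22 of 40, with a median of -1.12. The mean log2(FPKM + 1) of the fast muscle list was 4.24 and 3.80 at 52 hpf and 2.87 and 3.21 at 3 dpf. At 4 dpf it was back at 4.79 and 4.57, so the fall was not kept at the next stage. tnnt3a, a troponin gene, went from 39.7 and 24.2 to 2.94 and 3.28 FPKM (-2.96 ± 0.34). The similar actin genes acta1a (-2.49 ± 0.41) and acta1b (-2.405 ± 0.31) fell too. The 2 muscle-list genes that rose were ryr3 (2.89 ± 0.30), a calcium release channel gene that neurons also express, and jph1a (1.73). Of 12 slow muscle genes, 5 fell, and under median-of-ratios scaling 11 did. Leaving out 3 dpf replicate 1 or 52 hpf replicate 1 gave 3. Of 29 pigment cell genes tested, 10 fell and 3 rose, but 2 of the 10 passed the filter only through the 52 hpf libraries. dct, an enzyme of melanin synthesis, went from 14.96 and 10.8 to 0.188 and 1.56 FPKM (-2.98 ± 0.46). Of the epidermal genes, 8 were called lower in the fit of 24 libraries and 29 in that of 22, and of the fast muscle genes 4 and 14. Without 52 hpf replicate 1, 13 fast muscle and 5 pigment cell genes were called lower.

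Of 20 ionocyte genes tested, 4 rose and none was called lower, with a median of 0.24. They were the proton pump genes atp6v1b2 (2.38 ± 0.16) and atp6v1aa (1.31 ± 0.21), the carbonic anhydrase gene ca2 (1.58 ± 0.20) and the chloride cotransporter gene slc12a10.2 (1.49 ± 0.38). The pump and anhydrase genes are also expressed outside ionocytes, and the ionocyte regulators foxi3a (0.40) and foxi3b (0.95), named after their values were seen, were not called. The share of 20% called higher lies below the 26.1% of all genes, and it was 8 of the list without 3 dpf replicate 2. The calls of all 4 depended on the setting. That of atp6v1aa was lost under median-of-ratios scaling and on recovered reads, that of slc12a10.2 without 3 dpf replicate 1 or 52 hpf replicate 1, that of ca2 in the fits of 24 and of 22 libraries, and that of atp6v1b2 in the fit of 24.

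Genes of gut and kidney showed single strong changes in place of a common direction. fabp6, the bile acid-binding protein gene of the posterior intestine, had 0.250 FPKM in 1 library of 52 hpf, was listed at 0 in the other, and reached 47.5 and 23.2 FPKM at 3 dpf (4.94 ± 0.37, adjusted p = 1.46e-05). It reached 168 and 267 FPKM at 4 dpf. vil1, which encodes the microvillus protein villin, went from 0.184 and 0.255 to 25.98 and 8.65 FPKM (3.73 ± 0.43). Of 25 intestine, liver and yolk genes tested, 10 rose and 4 fell, but 1 of the 10 passed the filter only through the 3 dpf libraries. Under median-of-ratios scaling 4 rose and 5 fell. Without 3 dpf replicate 1, 5 rose. In the pronephros list 4 of 22 rose (18.2%) and 5 fell (22.7%), beside 26.1% and 15.7% of all genes. Its median of 0.31 became -0.15 without 3 dpf replicate 1 and 0.64 without 3 dpf replicate 2. Of the 4 that rose, pax2a also stands in the list of spinal neuron identity genes and was counted there. wt1a, a podocyte regulator gene, went from 0.950 and 1.44 to 35.3 and 20.5 FPKM (3.68 ± 0.38), while foxj1a, the regulator of motile cilia, fell by 3.00 ± 0.41 and slc20a1a, a phosphate transporter gene, by 3.68 ± 0.27. Of the 5 pronephros genes that fell, 1 passed the filter only through the 52 hpf libraries. Which cells of the tail held wt1a was not tested.

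The genes through which a niche signals to blood cells were mostly lower at 3 dpf. Of 37 cytokine, chemokine and growth factor genes tested, 24 fell and 3 rose, with a median of -1.45. csf3b, a granulocyte colony-stimulating factor gene, was at 57.0 and 127 FPKM at 52 hpf and at 0.688 and 3.13 FPKM at 3 dpf (-5.03 ± 0.46, adjusted p = 3.63e-05). il11a, an interleukin 11 gene, went from 235 and 180 to 12.9 and 8.19 FPKM (-4.19 ± 0.23), and il34, a ligand of the macrophage receptor Csf1r, from 46.6 and 49.0 to 1.01 and 6.31 FPKM (-3.67 ± 0.50). Named after their values were seen, the kit ligand genes kitlga (-1.19) and kitlgb (-1.33) were among those that fell. Those that rose included cxcl12a (3.13), a chemokine gene that guides migrating cells, and vcam1b (1.70), an adhesion gene. cxcl12a went from 1.38 and 1.29 to 21.9 and 17.3 FPKM, and its paralog cxcl12b from 1.497 and 2.186 to 0.0624 FPKM and a listed 0. cxcl12b was 1 of 3 members that passed the filter on low values only through the 52 hpf libraries, and without them 21 of 34 fell. The fit of 24 libraries called 11 of the 37 lower and that of 22 libraries 21.

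Ligands and receptors of patterning pathways fell more often than they rose. In the Wnt list 21 of 45 tested fell and 2 rose, with a median of -0.93. The ligand gene wnt4b went from 18.4 and 14.5 to 0.356 and 0.0762 FPKM (-3.84 ± 0.33, adjusted p = 2.6e-05), and the receptor gene fzd2 fell by 2.26 ± 0.30. The 2 that rose, dkk3a (2.09) and frzb (1.82), belong to families of secreted Wnt inhibitors. In the BMP and TGF-beta list 19 of 43 fell and 6 rose. bmp2a fell by 2.95 ± 0.36 and tgfb1a by 2.72 ± 0.25, both ligands, and the secreted matrix protein gene tgfbi fell by 2.84 ± 0.19. In the FGF and retinoic acid list 15 of 45 fell and 5 rose. The receptor gene fgfr1b went from 19.9 and 16.9 to 1.99 and 4.18 FPKM (-2.30 ± 0.43) and the retinoic acid-binding protein gene crabp2b fell by 2.29 ± 0.29. fgf6b, a ligand gene, rose by 2.64 ± 0.44. In the fit of 24 libraries 11 Wnt, 12 BMP and TGF-beta and 6 FGF and retinoic acid genes were called lower, and in that of 22 libraries 18, 16 and 14. Without 52 hpf replicate 1, 3 FGF and retinoic acid genes were called higher.

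Heat shock and early response genes, which also react to the dissociation of tissue, were lower at 3 dpf. Of 44 tested, 23 fell and 3 rose, with a median of -1.15. hsp90aa1.2, a cytosolic chaperone gene, was at 902 and 812 FPKM at 52 hpf and at 82.9 and 81.0 FPKM at 3 dpf (-3.37 ± 0.15, adjusted p = 6.13e-06). At 36 hpf it was at 84.4 and 77.8 FPKM and at 4 dpf at 152 and 153 FPKM, so 52 hpf was its highest stage. The list as a whole was lowest at 3 dpf: its mean log2(FPKM + 1) went from 7.41 and 7.53 to 6.51 and 6.38, and the 4 dpf libraries had 7.43 and 7.63. hsp70l went from 1730 and 2667 to 255 and 285 FPKM (-2.99 ± 0.22), and hsp70.3, a close relative whose reads may be shared, fell by 2.88 ± 0.34. The immediate early genes divided: egr3 fell by 2.58 ± 0.19, the genes fosab (-0.13), jun (-0.16) and egr1 (-0.15) were not called, and fosaa (2.05), klf2a (1.58) and egr4 (1.44) rose. The fit of 24 libraries called 7 of the 44 lower and that of 22 libraries 21. The list moved with the stage, and its part in the other results was not tested.

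Cytosolic ribosomal protein genes were lower by a narrow margin. Of 80 tested, 50 fell and 1 rose, with a median of -1.09, close to the size a call needs. rpsa went from 1034 and 981 to 324 and 300.3 FPKM (-1.69 ± 0.17, adjusted p = 5.77e-05) and rpl5a from 786 and 757 to 253 and 185 FPKM (-1.83 ± 0.19). The 1 that rose, rps8b (2.42 ± 0.30), was low at both stages, at 1.02 and 0.801 FPKM and then at 11.3 and 7.47 FPKM. The count depends on the scaling: 78 were called lower under median-of-ratios scaling and 7 under a common FPKM sum, and the median was below 0 under both. The fit of 24 libraries called 7 lower and that of 22 libraries 50, and 32 were called lower without 3 dpf replicate 2. The list's mean log2(FPKM + 1) was 9.13 and 9.04 at 52 hpf and 8.19 and 7.88 at 3 dpf. It was 8.95 and 8.74 at 4 dpf, again above 3 dpf. The elongation factor gene eef2b fell by 1.39 ± 0.18.

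Glycolysis genes were higher, while few respiratory chain genes were called. Of 31 glycolysis genes tested, 18 rose and 5 fell, with a median of 1.43. eno1a, an enolase gene, went from 33.7 and 39.0 to 207 and 242 FPKM (2.59 ± 0.18, adjusted p = 1.22e-05), pfkla, a phosphofructokinase gene, rose by 2.65 ± 0.27, and aldocb, the brain-type aldolase gene, by 2.50 ± 0.23. The 5 that fell were hk2 (-2.68 ± 0.62), pfkma (-1.63), slc2a1b (-1.27), pgam2 (-1.22) and aldoab (-1.02), of which pfkma, pgam2 and aldoab also stand in the fast muscle list. Of 79 nuclear genes of oxidative phosphorylation, 12 rose and 1 fell, with a median of 0.59. The share of 15.2% called higher lies below the 26.1% of all genes, while the median lies above their 0.32. ndufa4, a respiratory chain subunit gene, rose from 12.5 and 11.6 to 124 and 118 FPKM (3.23 ± 0.22). Under median-of-ratios scaling 2 rose and 2 fell, and under a common FPKM sum 35 rose. None of the 13 mitochondrially encoded genes was called, and their median of 0.29 became -0.20 under median-of-ratios scaling. In the fit of 24 libraries 5 glycolysis genes and 1 oxidative phosphorylation gene were called higher, and in that of 22 libraries 18 and 12.

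The clock genes were higher in part. Of 45 tested, 19 rose and 2 fell, with a median of 0.83. nr1d1, a repressor of the clock loop, was at 3.82 and 4.41 FPKM at 52 hpf, at 29.2 and 37.0 FPKM at 3 dpf (2.73 ± 0.19, adjusted p = 1.27e-05) and at 141 and 144 FPKM at 4 dpf. dbpa, an output factor gene, went from 2.23 and 1.61 to 20.8 and 20.7 FPKM (2.91 ± 0.23), and per1b and per1a, period genes named after their values were seen, rose by 2.34 and 2.26. The light-induced period gene per2 (-0.92) was not called. The time of day at which embryos were collected was not given among the labels used here, so stage and collection time cannot be told apart for these genes. Under median-of-ratios scaling 13 were called higher with a median of 0.35, and 6 were in the fit of 24 libraries and 18 in that of 22.

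Lists on lipid metabolism, redox control and protein turnover had changes in both directions. Of 49 sterol and lipid genes tested, 15 rose and 6 fell, with a median of 0.16 that was -0.23 under median-of-ratios scaling. The shares of 30.6% higher and 12.2% lower lie near the 26.1% and 15.7% of all genes. hmgcra, the rate-limiting enzyme of sterol synthesis, went from 2.27 and 2.06 to 15.4 and 18.7 FPKM (2.50), and scdb, a fatty acid desaturase gene, rose by 2.77. fabp11a, a fatty acid-binding protein gene, fell by 2.68. In the list of glucocorticoid, xenobiotic and redox genes 17 of 44 fell and 7 rose, with a median of -0.59, and without 52 hpf replicate 1, 4 rose. prdx2, a peroxiredoxin gene abundant in red cells, went from 2090 and 1740 to 141 and 240 FPKM (-3.37), and cyp24a1, which degrades vitamin D, rose by 2.68. Of 52 proteasome and autophagy genes, 6 fell and 3 rose, with a median of -0.33. These shares, 11.5% lower and 5.77% higher, both lie below those of all genes.

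Immune response genes that could be tested were few. Of 16 interferon response genes, 6 fell (37.5%, beside 15.7% of all genes) and none was called higher, led by mxc (-2.64), an antiviral GTPase gene. Of the 6, 1 passed the filter only through the 52 hpf libraries. Of 11 complement and plasma protein genes, 5 fell (45.5%) and none was called higher, but 2 of the 5 passed the filter only through the 52 hpf libraries. The median of these 11 genes, -1.02, became -0.74 without 52 hpf replicate 1. Of 17 B and T lymphocyte genes in the table, 3 passed the filter on low values, and of 39 lens and eye genes 3 did, with none of those eye genes called. Of 25 neuromast and hair cell genes, 6 fell (24%) and 5 rose (20%), beside 15.7% and 26.1% of all genes. The median of that list, -0.29, became -0.05 without 52 hpf replicate 2 and -0.02 without 3 dpf replicate 2. Of 19 genes of muscle progenitors 6 fell (31.6%) and 1 rose (5.26%). Their median of -0.76 became -0.60 without 52 hpf replicate 2 and -0.68 without 3 dpf replicate 2. The calls of both lists depended on single libraries. Of 5 hatching gland genes tested, 3 fell: klf17, npsn and cd63, of which npsn also stands in the neutrophil list. The other 2 are not limited to that gland. Double-negative libraries of the adult kidney held klf17 at 81.4 and 130.7 FPKM and cd63 at 161.1 and 91.9 FPKM. The fit of 24 libraries called none of the 5 hatching gland genes.

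The double-negative libraries of 36 hpf and 4 dpf share no library with the comparison and allow the direction to be set beside a wider interval. Of all genes tested, 58.5% were higher at 4 dpf than at 36 hpf, with a median of 0.16. Of the genes called higher at 3 dpf, 3178 (70.0%) were also higher at 4 dpf than at 36 hpf, with a median of 0.41. Of those called lower, 1468 (53.9%) were lower, with a median of -0.08. Most of the forebrain and eye genes named above reached 1 FPKM at 36 hpf and lay below it at the later stages. An exception was emx3, at 4.155 and 5.713 FPKM at 36 hpf and at 2.341 and 8.737 FPKM at 52 hpf. The part of these genes in the shares was not tested.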

How the data were processed

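RNA of sorted zebrafish tail cells was sequenced, and the authors deposited 1 table of FPKM per gene for 24 libraries. Per the submitters' processing notes the tools were HISAT, HTSeq, FastQC and DESeq2 and the build GRCz10, with no role given. The strand setting was not stated, so antisense and overlapping genes are uncertain. Genes with at least 1 FPKM in 2 of the 8 libraries labelled double-negative tail were fitted as log2(FPKM + 1) with limma 3.58.1 in R 4.3.3, with 4 group means and an intensity trend, and p-values were adjusted over all genes tested. Whole reads recovered from FPKM steps (100% of genes above 0 in at least 3 libraries, tolerance 0.01 reads) gave the depths and a voom alternative. The fit was tested on simulated data. Named per direction were the 15 largest called changes and the 5 most abundant called genes, and up to 4 called members of each of 49 lists. Genes named beyond that rule were chosen after their values were seen. The comparison and lists were chosen with earlier results of these data known. Replicate numbers did not pair the libraries. A few members of the lists are not reported here by name.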

Additional observations from a re-analysis of the deposited data

How the results depend on the processing

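Among 15 alternatives, 14 listed at the start and 1 (erythroid genes left out) chosen after seeing the data, counts of calls moved by over 1.5 times in the fit of all 24 libraries, with 2025 higher and 823 lower. Other scalings also moved the split: median-of-ratios scaling gave 3053 higher and 3984 lower, voom on recovered reads 3155 and 3921, and a common FPKM sum 6069 and 1995. Leaving out 1 library gave 3936 to 4616 higher and 2119 to 2608 lower. With the replicate number as a block, 4554 were higher and 2754 lower, although deviations of same-numbered libraries correlated at only 0.0723. Without erythroid genes, 4961 were higher and 2537 lower. The naming rule gave 202 called genes, without those chosen after their values were seen. Of these 202, 138 were called under every alternative, 64 lost the call in at least 1, and none reversed. With all 24 libraries 59 lost it, but 8 without replicate 2 of EC and of HSPC at 4 dpf, when 3773 genes were higher and 2244 lower.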

Other observations

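Gene families taken by name after values were seen, and therefore not tested as groups, gave these counts. All 9 voltage-gated sodium channel genes tested rose (median 2.56), as did 20 of 24 potassium channel genes (median 2.11) and 25 of 30 calcium channel genes (median 2.06), and none of these was called lower. Receptors followed, with 24 of 27 ionotropic glutamate receptor genes (median 2.31), 8 of 8 GABA-A subunit genes (median 2.61) and 8 of 12 nicotinic subunit genes (median 1.60) higher. Of 27 subunit genes of the V-ATPase, the proton pump of vesicles and lysosomes, 16 rose and 4 fell.

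Among adhesion families, 10 of 12 laminin genes fell (median -1.88). Of 26 integrin genes, 11 fell, 1 rose and 14 were not called (median -1.01). The fit of 24 libraries called 5 laminin and 5 integrin genes lower. In the tumour necrosis factor ligand and receptor families 11 of 16 fell and 1 rose (median -1.48). Of 37 lysine demethylase and methyltransferase genes, which modify histones, 18 rose (48.6%, beside 26.1% of all genes) and 1 fell. The rise depended on the scaling. Under median-of-ratios scaling 6 of the 37 rose and 2 fell, where 17.6% of all genes were called higher. The fit of 24 libraries called none of the 37, and that of 22 libraries called 16 higher and 1 lower.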
